A study of Mus musculus with 7 samples.

Results

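The organic anion transporting polypeptides, encoded by the *Slco* genes, and the organic anion and cation transporters of the *Slc22a* genes were followed in mouse liver. Members were all non-control probes of the array whose gene name begins with *Slco* or *Slc22a* and a number, which gave 47 probes for 41 genes (15 *Slco* and 26 *Slc22a* genes) out of 55681 non-control probes. Whole liver of 4-week-old mice on a C57BL/6J background was profiled with arrays of 1 dye, with 1 array per animal. The 3 *Rbpj*-/- mice were *AlfpCre*+ and homozygous for the floxed *Rbpj* allele and had cholestasis, whereas the 4 *Rbpj*+/+ mice were *AlfpCre*- and carried the same floxed alleles without cholestasis. *AlfpCre* is active from the embryonic liver on, in the cells that give rise to hepatocytes and bile duct cells, so other liver cells keep *Rbpj*. The animals were untreated, and the labels do not give their sex.

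Hepatocytes take up bile acids, bilirubin, hormones and drugs from the blood across their basolateral membrane. The *Slco* products exchange bulky organic anions for small anions, while the *Slc22a* family holds organic cation transporters, carnitine transporters and organic anion transporters. In the mouse, several genes of each family lie side by side in clusters of close relatives, and some of them, such as *Slco1a1*, *Slc22a26*, *Slc22a27* and *Slc22a29*, are known for unequal expression in the livers of male and female mice.

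The largest differences of the *Slc22a* family lay among neighbours on chromosome 19, so their probes and promoters are shown first. The array probes are 60 bases long and are given 5′ to 3′, with the longest run shared with the probe of another gene of this cluster in capitals.
*Slc22a26*: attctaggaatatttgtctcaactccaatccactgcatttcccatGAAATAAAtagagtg
*Slc22a27*: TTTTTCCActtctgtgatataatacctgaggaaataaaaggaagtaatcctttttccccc
*Slc22a28*, probe 1: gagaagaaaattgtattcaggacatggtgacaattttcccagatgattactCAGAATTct
*Slc22a28*, probe 2: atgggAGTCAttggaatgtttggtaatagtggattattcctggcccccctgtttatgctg
*Slc22a29*: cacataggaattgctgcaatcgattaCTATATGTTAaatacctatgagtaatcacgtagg
*Slc22a30*: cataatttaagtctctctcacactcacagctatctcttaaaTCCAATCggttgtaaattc
In the coordinates of the array design (mm9) these probes lie on the minus strand of chromosome 19, at chr19:7856477-7856536 for *Slc22a26*, chr19:7938881-7938940 for *Slc22a27*, chr19:8136749-8136808 (probe 1) and chr19:8137911-8137970 (probe 2) for *Slc22a28*, chr19:8234836-8234895 for *Slc22a29* and chr19:8417813-8417872 for *Slc22a30*. Whether a probe lies in coding or untranslated sequence was not analysed here. Shared runs within the cluster were at most 10 bases long, and the longest run that any tested member probe shared with the probe of another gene on the array was 17 bases. Only probes were compared, so matches of a probe to the transcripts of related genes were not analysed here.

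The promoters below are the 250 bases before the annotated start of *Slc22a28*, *Slc22a29* and *Slc22a30*, taken from RefSeq (GRCm38.p6, minus strand, 5′ to 3′). Capitals mark the longest run shared between *Slc22a28* and *Slc22a30* and, for *Slc22a29*, the longest run shared with *Slc22a28*.
*Slc22a28*, chr19:8131983-8132232: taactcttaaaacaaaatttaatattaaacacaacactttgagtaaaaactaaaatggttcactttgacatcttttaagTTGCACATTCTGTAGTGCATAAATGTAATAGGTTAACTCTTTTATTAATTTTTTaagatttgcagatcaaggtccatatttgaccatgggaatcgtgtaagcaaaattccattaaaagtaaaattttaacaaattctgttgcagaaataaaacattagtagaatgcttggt
*Slc22a30*, chr19:8405106-8405355: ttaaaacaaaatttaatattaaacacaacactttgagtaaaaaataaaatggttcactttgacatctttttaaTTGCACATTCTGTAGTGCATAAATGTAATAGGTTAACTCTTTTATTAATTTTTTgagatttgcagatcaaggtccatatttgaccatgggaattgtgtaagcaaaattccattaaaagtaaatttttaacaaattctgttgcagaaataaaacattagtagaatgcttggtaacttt
*Slc22a29*, chr19:8218901-8219150: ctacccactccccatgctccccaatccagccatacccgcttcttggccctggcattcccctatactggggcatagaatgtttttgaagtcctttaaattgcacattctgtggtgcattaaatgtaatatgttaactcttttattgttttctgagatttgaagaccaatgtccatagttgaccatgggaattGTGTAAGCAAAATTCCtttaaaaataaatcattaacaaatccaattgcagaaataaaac
Promoters of *Slc22a28* and *Slc22a30* were identical at 238 of 256 aligned columns (93.0%) and shared a run of 54 bases. *Slc22a29* was 65.1% identical to *Slc22a28* and 65.2% to *Slc22a30*, with a longest shared run of 16 bases with *Slc22a28*. The run that *Slc22a29* shares with *Slc22a30* is longer, because their match includes bases just before the capitals, and its length was not computed. Over the 14 other pairs among *Slc22a19* and *Slc22a26* to *Slc22a30*, identity ranged from 43.9% to 65.2%. A RefSeq promoter was matched for 35 of the 41 member genes, which have 40 promoters.

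Detection was examined first, because the rule for testing depends on it. A probe counted as well above background when the scanner software marked it as positive, significant and well above the local background, and it was tested when this held in every animal of 1 or both genotypes. Of the 41 genes, 24 (27 probes) were tested and 17 were not. A total of 18 genes were well above background on every array of both genotypes, 19 on all 4 *Rbpj*+/+ arrays and 23 on all 3 *Rbpj*-/- arrays. *Slco1a1* was above background on all *Rbpj*+/+ arrays and on 2 of 3 *Rbpj*-/- arrays, and it is the 1 gene that met the rule through *Rbpj*+/+ liver alone. The reverse held for *Slc22a26* and *Slc22a27*, which were above background on 2 of 4 *Rbpj*+/+ arrays, for *Slc22a29* on 1, and for *Slco4a1* and the pseudogene *Slc22a13b-ps* on 3, each with all 3 *Rbpj*-/- arrays. Probes that met the rule through 1 genotype alone had to differ in detection, and no count of them is read as support.

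No array detected *Slc22a2*, *Slc22a16*, *Slc22a19*, *Slc22a22*, *Slco1a6*, *Slco1c1*, *Slco4c1* or *Slco6b1*. A further 9 genes were above background on 1 or 2 arrays and were not tested. These were *Slc22a12* (animals *Rbpj*+/+_1156 and *Rbpj*-/-_N3), *Slc22a14* and *Slc22a8* (*Rbpj*+/+_1156), *Slc22a20* (*Rbpj*+/+_1156 and *Rbpj*+/+_991), *Slc22a3*, *Slco1a5* and *Slco6c1* (*Rbpj*-/-_N3), *Slco5a1* (*Rbpj*+/+_1156 and *Rbpj*-/-_N3, by different probes) and *Slco6d1* (*Rbpj*+/+_991). For 7 of these 9 genes the arrays were only those of *Rbpj*+/+_1156 and *Rbpj*-/-_N3. These 2 arrays had the highest median intensities of all probes (18.7 and 29.6, against 4.99 to 7.75 on the other arrays), and the part of this in the detection of dim genes was not tested.

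**Figure D1:**
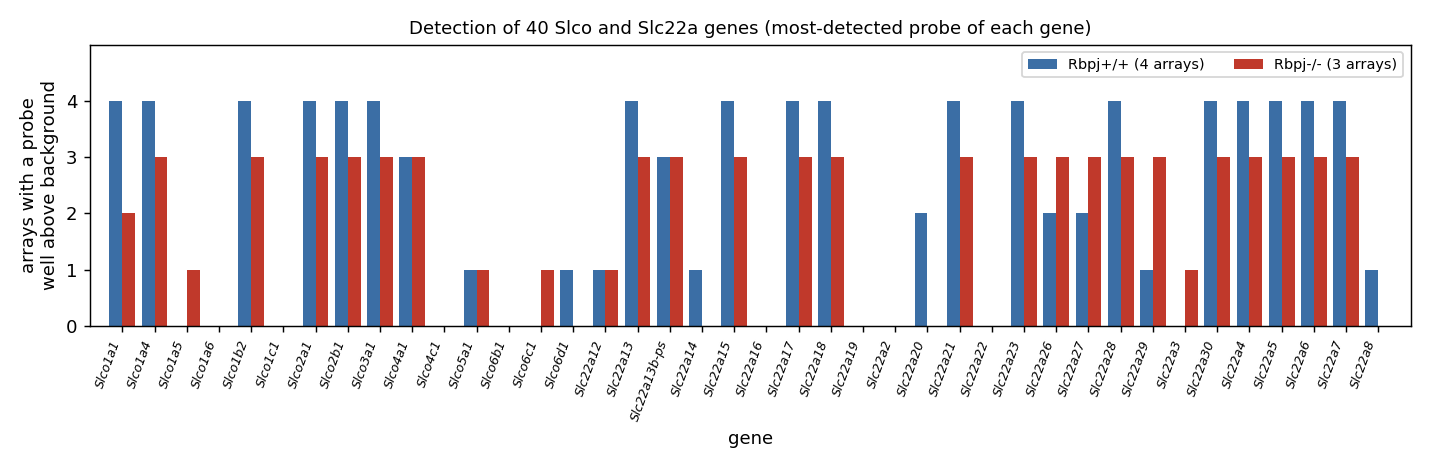
Number of arrays on which the most-detected probe was well above background, for 40 of the 41 genes, in *Rbpj*+/+ (blue, 4 arrays) and *Rbpj*-/- liver (red, 3 arrays). Of those shown, 17 genes reached the full number in both genotypes and 8 were detected on no array, which shows as a gap.

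Across the arrays, 41.1% to 64.9% of the non-control probes were well above background. *Rbpj* itself was lower in *Rbpj*-/- liver by both of its probes, with log2 fold changes of −1.13 (SE 0.24, limma adjusted p = 0.0115) and −1.63 (SE 0.58, adjusted p = 0.0723), and whether these probes lie in the deleted part was not analysed here. Hepatocyte markers were tested for 12 of 12 genes, of which 8 were lower and 0 higher (median log2 fold change −0.67). For comparison, 19.5% of all tested genes were lower and 14.6% higher. The log2 of the summed linear signals of the hepatocyte markers was 12.38 to 12.85 in *Rbpj*+/+ and 11.96 to 12.09 in *Rbpj*-/- liver. The brightest genes dominate this sum, and the mean log2 level of the list overlapped between genotypes (8.11 to 8.78 against 7.93 to 8.13). Macrophage markers were higher for 7 of 8 genes (summed signals as log2, 6.63 to 7.04 against 8.52 to 9.003), stellate cell markers for 5 of 6 (4.94 to 5.62 against 6.07 to 6.74), and endothelial markers for 4 of 8 with 1 lower (5.72 to 6.25 against 6.38 to 7.02). Bile duct cell markers were higher for 2 of 6 tested (0.88 to 1.68 against 1.96 to 2.51), and their mean log2 levels also overlapped. Among the markers of these other cell types, *Epcam*, *Emcn* and *Des* were below background on some *Rbpj*+/+ arrays, and none was below background on all arrays. In whole liver, fewer cells of a type and less RNA per cell cannot be told apart, and the part of these shifts in the results below was not tested. The *Rbpj*+/+ arrays lay in row 1 and the *Rbpj*-/- arrays in row 2 of 1 slide, so slide row and genotype cannot be told apart. The Y-linked genes *Ddx3y* and *Eif2s3y* were well above background on all 7 arrays. *Xist*, which is expressed from the inactive X chromosome, was so on 1 *Rbpj*+/+ array and on none of the *Rbpj*-/- arrays, and it was not tested.

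Genotypes were then compared for the 24 tested genes with limma, with Benjamini-Hochberg adjustment over all tested probes and a threshold of 0.1. Values are normalized log2 intensities, for which the 75th percentile of an array is 0, and a difference is *Rbpj*-/- minus *Rbpj*+/+. Of the 24 genes, 13 were called (54.2%), against a background of 34.2% of all 18755 tested genes. Of these, 9 were lower (37.5%, background 19.5%) and 4 higher in *Rbpj*-/- liver (16.7%, background 14.6%), while 11 were not called. For 12 of the 24 genes the animals of both genotypes lay apart without overlap, which held for 36.6% of all tested genes. As a median, the members had a log2 fold change of −0.34, the 7 *Slco* genes of −0.36, the 17 *Slc22a* genes of −0.08 and all tested genes of −0.13. Called genes with a change of 1 or more on the log2 scale numbered 8, with 6 lower and 2 higher (background 16.1% of all tested genes). With a threshold of 0.05, the number of calls was 11 (background 23.6%). These counts hold genes that met the rule for testing through the genotype in which they are higher, namely *Slco1a1*, *Slc22a27* and *Slc22a29*, and the last 2 are the higher genes with a change of 1 or more. Among the 18 genes above background on all 7 arrays, fitted alone with the other such genes, 2 were higher (background 13.8%) and 8 lower (background 22.8%).

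**Figure D2:**
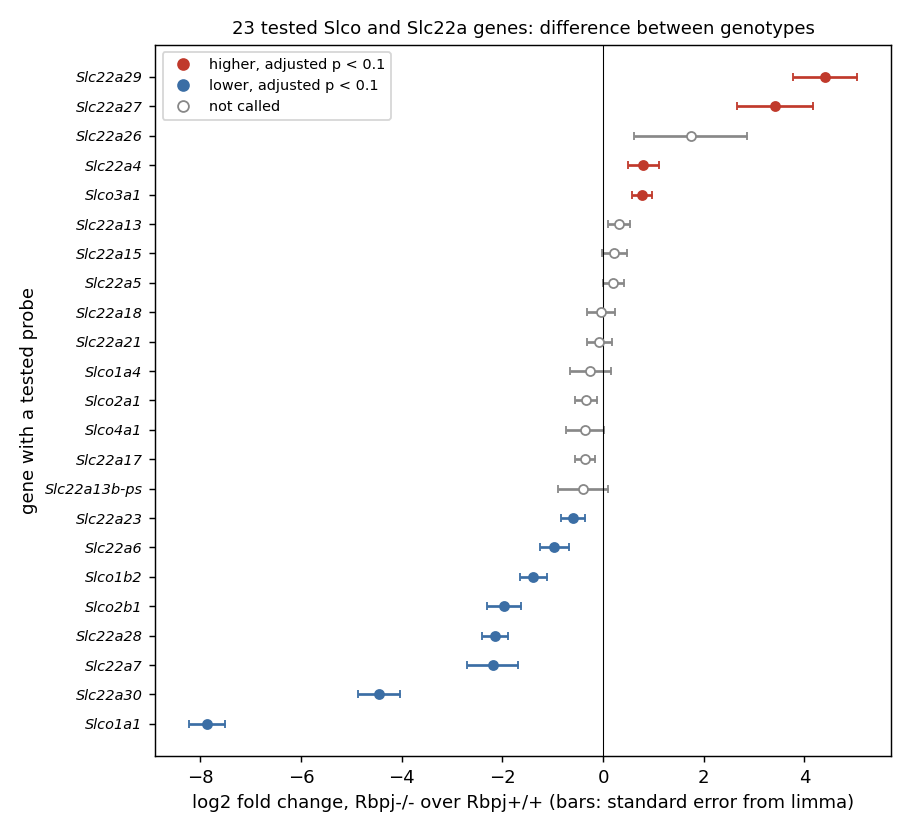
Log2 fold changes of 23 of the 24 tested genes (x axis, *Rbpj*-/- over *Rbpj*+/+) with their standard errors from limma, ordered by size. Blue points are 8 of the 9 genes that were lower, red points the 4 that were higher and open grey points the 11 that were not called. *Slco1a1* lies at the lower end (−7.87) and *Slc22a29* at the upper end (4.41).

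Of the *Slco* genes, 7 of 15 were tested, and 3 were lower and 1 higher in *Rbpj*-/- liver. The 3 that fell were *Slco1a1*, *Slco1b2* and *Slco2b1*, of which *Slco1a1* met the rule for testing through *Rbpj*+/+ liver alone. *Slco1a1*, which carries bile acids and steroid conjugates, had a value of 4.62 in *Rbpj*+/+_1155, 3.92 in *Rbpj*+/+_1156, 4.41 in *Rbpj*+/+_1024 and 4.83 in *Rbpj*+/+_991, against −2.75 in *Rbpj*-/-_N3, −4.24 in *Rbpj*-/-_N5 and −3.28 in *Rbpj*-/-_2866. Values of the other genes follow this order of animals. The genotypes were 6.67 log2 units apart at their closest animals, and in animal *Rbpj*-/-_N5 the probe was not well above background. The log2 fold change was −7.87 (SE 0.36, adjusted p = 3.63e-05). With another background correction, normexp, the size was smaller (log2 fold change −5.24), and over the 16 alternatives that could be computed the adjusted p was 0.00502 or lower.

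*Slco1b2* encodes a hepatocyte carrier for bile acids, bilirubin conjugates and statins. Its values were 8.28, 8.28, 8.63 and 8.32 in *Rbpj*+/+ and 6.77, 6.59 and 7.62 in *Rbpj*-/- liver. The genotypes did not overlap, and animal *Rbpj*-/-_2866 was the closest to *Rbpj*+/+ liver. It fell by 1.39 on the log2 scale (SE 0.27, adjusted p = 0.0087).

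*Slco2b1*, a carrier of sulfated steroids and other organic anions, is measured by a pair of probes. The brighter probe had values of 4.14, 3.72, 4.47 and 4.38 in *Rbpj*+/+ and of 1.74, 1.84 and 3.05 in *Rbpj*-/- liver, again with *Rbpj*-/-_2866 closest to *Rbpj*+/+ liver and no overlap. Its log2 fold change was −1.97 (SE 0.34, adjusted p = 0.0059), and the other probe, whose position overlaps that of the first, gave −1.94 (SE 0.38, adjusted p = 0.00905).

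*Slco3a1*, a broadly expressed carrier of prostaglandins and thyroxine, went the other way. Its values were −0.19, −0.09, 0.15 and 0.28 in *Rbpj*+/+ and 0.90, 0.60 and 0.92 in *Rbpj*-/- liver, without overlap. Its difference was 0.77 on the log2 scale (SE 0.20, adjusted p = 0.0255), and a further probe gave 0.56 (SE 0.20, adjusted p = 0.0766). Without a filter on dim probes the adjusted p was 0.175, so the call depends on the filter.

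The other *Slco* genes were not called. *Slco1a4*, which lies in the same cluster on chromosome 6 as *Slco1a1* and *Slco1b2*, had values of 1.29, 1.24, 2.46 and 1.14 in *Rbpj*+/+ and of 0.50, 1.86 and 1.46 in *Rbpj*-/- liver, so the genotypes overlapped (log2 fold change −0.26, SE 0.41, adjusted p = 0.673). The prostaglandin transporter gene *Slco2a1* had means of 4.39 ± 0.33 (SD, n = 4) and 4.06 ± 0.05 (SD, n = 3), with a limma adjusted p of 0.3, and the *Rbpj*-/- values lay within the *Rbpj*+/+ range. *Slco4a1*, which encodes a thyroid hormone carrier, had means of −2.46 ± 0.61 (SD, n = 4) and −2.81 ± 0.62 (SD, n = 3) and a limma adjusted p of 0.525.

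**Figure D3:**
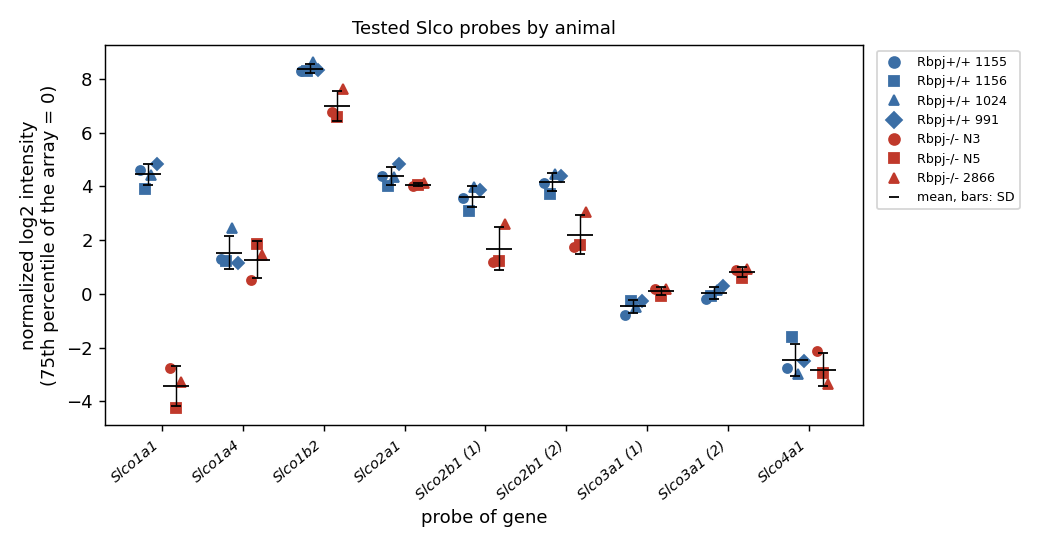
Normalized log2 intensity (y axis) of the 9 tested *Slco* probes by animal, *Rbpj*+/+ in blue and *Rbpj*-/- in red, with the mean and SD in black. The *Slco1a1* values of the genotypes are 6.67 log2 units apart at their closest, whereas those of *Slco1a4* overlap. Numbers in brackets tell probes of a gene apart, and levels of different probes cannot be compared.

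In the cluster on chromosome 19, neighbouring genes were called in opposite directions. The higher genes, *Slc22a27* and *Slc22a29*, met the rule for testing through *Rbpj*-/- liver alone, so their side of this pattern is not read as support. The order of the probes along the chromosome is *Slc22a19*, *Slc22a26*, *Slc22a27*, *Slc22a28*, *Slc22a29* and *Slc22a30*, of which *Slc22a27* and *Slc22a29* were higher, *Slc22a28* and *Slc22a30* lower, *Slc22a26* not called and *Slc22a19* detected on no array. These genes belong to a group of organic anion transporters that is expanded in rodents. *Slc22a28* and *Slc22a30* are the pair whose promoters, printed above, were 93.0% identical. Whether this bears on their shared direction was not tested.

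*Slc22a30* had values of 2.36, 3.65, 3.04 and 2.52 in *Rbpj*+/+ and of −2.28, −1.66 and −0.72 in *Rbpj*-/- liver. The genotypes were 3.08 log2 units apart at their closest, and the probe was well above background on all arrays. Its fold change on the log2 scale was −4.45 (SE 0.42, adjusted p = 0.000496), and −2.96 with normexp (adjusted p = 0.000141).

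*Slc22a28* was lower by both probes, but by different amounts. Probe 2 represents the gene by its mean signal over all 7 arrays, to which the fall itself contributes. It had values of 4.03, 3.67, 3.83 and 4.15 in *Rbpj*+/+ and of 1.30, 1.75 and 2.29 in *Rbpj*-/- liver, which gave a log2 fold change of −2.14 (SE 0.26, adjusted p = 0.00149). Probe 1 had values of 4.37 to 4.64 in *Rbpj*+/+ and of −0.18 to 1.09 in *Rbpj*-/- liver, which gave −4.22 (SE 0.30, adjusted p = 0.000206). Neither probe had overlapping genotypes, so the direction is shared while the size of the fall depends on the probe.

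*Slc22a29*, which lies between *Slc22a28* and *Slc22a30*, had values of −1.42, −3.74, −3.84 and −3.24 in *Rbpj*+/+ and of 0.28, 1.58 and 2.21 in *Rbpj*-/- liver. Of the *Rbpj*+/+ animals, *Rbpj*+/+_1155 alone was well above background, and it also had the highest value of its genotype. The log2 fold change was 4.41 (SE 0.63, adjusted p = 0.00277), and 3 of the 4 *Rbpj*+/+ values behind it were not well above background. It ranged from 1.93 to 4.96 over the settings, the lowest value with normexp.

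*Slc22a27* had values of −0.44, −1.72, −3.29 and −3.54 in *Rbpj*+/+ and of 0.01, 1.62 and 1.89 in *Rbpj*-/- liver. The genotypes did not overlap, and of the *Rbpj*+/+ animals *Rbpj*+/+_1155 and *Rbpj*+/+_1156 alone were well above background. This amounted to a log2 fold change of 3.42 (SE 0.76, adjusted p = 0.0145). It was 1.74 with normexp, and the call was lost without a filter on dim probes (adjusted p = 0.117).

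For *Slc22a26* the *Rbpj*+/+ animals spread over 4.93 log2 units, with values of −0.08, −2.02, −4.57 and −5.02, against −2.09, −1.55 and 0.09 in *Rbpj*-/- liver. Animals *Rbpj*+/+_1155 and *Rbpj*+/+_1156 lay within the *Rbpj*-/- range, and the gene was not called (log2 fold change 1.74, SE 1.11, adjusted p = 0.283). Without animal *Rbpj*+/+_1155, the log2 fold change was 2.68 and the gene was called (adjusted p = 0.0535). Animal *Rbpj*+/+_1155 had the highest *Rbpj*+/+ value of *Slc22a26*, *Slc22a27* and *Slc22a29* alike.

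**Figure D4:**
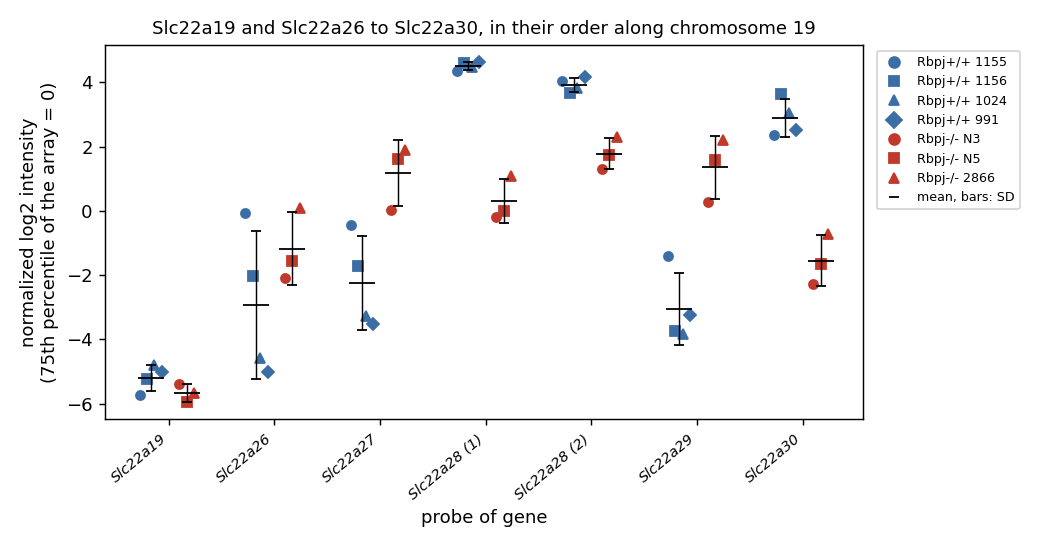
Normalized log2 intensity (y axis) of the probes of the *Slc22a* cluster by animal, in their order along chromosome 19 (x axis), *Rbpj*+/+ in blue and *Rbpj*-/- in red, with the mean and SD in black. *Slc22a28* (both probes) and *Slc22a30* lie lower in *Rbpj*-/- liver, while *Slc22a27* and *Slc22a29* lie higher. No array detected the *Slc22a19* probe.

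Outside this cluster, 4 *Slc22a* genes were lower, among them the hepatocyte carrier *Slc22a7*, and 1 was higher. *Slc22a7*, the organic anion transporter OAT2, had values of 5.09, 4.70, 4.63 and 5.06 in *Rbpj*+/+ and of 1.96, 1.88 and 4.19 in *Rbpj*-/- liver. Animals *Rbpj*-/-_N3 and *Rbpj*-/-_N5 were far below the *Rbpj*+/+ range, while *Rbpj*-/-_2866 was 0.45 log2 units below the lowest *Rbpj*+/+ animal. Their means differed by a log2 fold change of −2.20 (SE 0.51, adjusted p = 0.0177), and the adjusted p was 0.131 without a filter on dim probes.

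*Slc22a6* encodes OAT1, best known from the kidney. Its values were −1.05, −1.39, −0.69 and −1.69 in *Rbpj*+/+ and −1.98, −2.63 and −1.91 in *Rbpj*-/- liver, without overlap (log2 fold change −0.97, SE 0.29, adjusted p = 0.042). It was not called without *Rbpj*+/+_1024 (adjusted p = 0.101) or *Rbpj*-/-_N5 (0.152), with quantile normalization (0.149) or without a filter on dim probes (0.224). With normexp it was called with a log2 fold change of −0.60.

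*Slc22a23* is an orphan member of the family. Its values were 4.43, 4.12, 3.97 and 3.77 in *Rbpj*+/+ and 3.17, 3.47 and 3.78 in *Rbpj*-/- liver, so *Rbpj*-/-_2866 lay just above the lowest *Rbpj*+/+ animal (log2 fold change −0.60, SE 0.23, adjusted p = 0.0923). This call was lost under 11 of 17 alternatives, with an adjusted p of up to 0.356, among them without *Rbpj*+/+_1155, *Rbpj*+/+_1156, *Rbpj*+/+_1024, *Rbpj*-/-_N3 or *Rbpj*-/-_N5 (0.119 to 0.261).

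*Slc22a4*, which encodes the ergothioneine transporter OCTN1, was the 1 higher gene of the family outside the cluster. Its values were −1.44, −0.41, −1.40 and −1.71 in *Rbpj*+/+ and −0.31, −0.56 and −0.45 in *Rbpj*-/- liver, and animal *Rbpj*+/+_1156 lay within the *Rbpj*-/- range (log2 fold change 0.80, SE 0.30, adjusted p = 0.0877). The call was lost under 9 of 17 alternatives, among them without any animal but *Rbpj*+/+_1156 (adjusted p 0.157 to 0.201).

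The other 7 tested *Slc22a* genes outside the cluster were not called. The carnitine transporter gene *Slc22a5* had means of −0.32 ± 0.24 (SD, n = 4) and −0.12 ± 0.20 (SD, n = 3), with a difference of 0.20 (SE 0.21, limma adjusted p = 0.507). *Slc22a18* had means of 6.16 ± 0.29 and 6.12 ± 0.52, and its difference was −0.04 (SE 0.28, adjusted p = 0.925). *Slc22a21*, a further carnitine transporter gene of the mouse, had a difference of −0.08 (SE 0.25, adjusted p = 0.839). The differences of *Slc22a13*, a urate and nicotinate transporter gene, and of *Slc22a15* were 0.31 (SE 0.21, adjusted p = 0.311) and 0.23 (SE 0.25, adjusted p = 0.537), and that of *Slc22a13b-ps* was −0.40 (SE 0.49, adjusted p = 0.582). *Slc22a17*, which encodes a receptor of lipocalin 2, had values of −0.73 to −0.42 in *Rbpj*+/+ and of −1.26 to −0.88 in *Rbpj*-/- liver, which did not overlap, but its difference of −0.36 (SE 0.19) did not pass the threshold (adjusted p = 0.202).

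**Figure D5:**
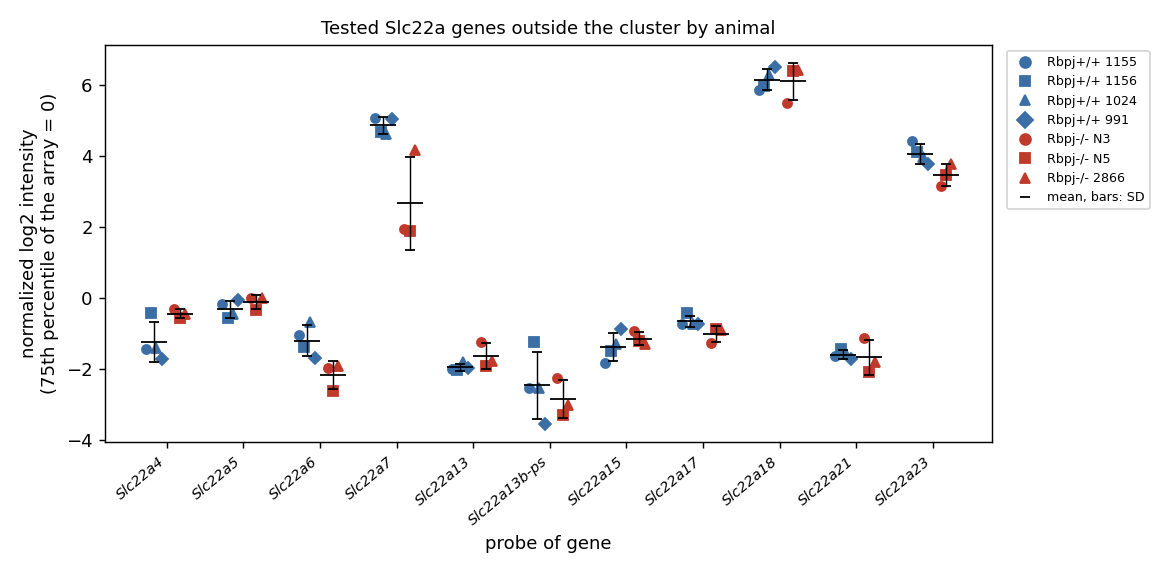
Normalized log2 intensity (y axis) of 11 of the 12 tested *Slc22a* genes outside the cluster on chromosome 19 by animal, *Rbpj*+/+ in blue and *Rbpj*-/- in red, with the mean and SD in black. For *Slc22a7* animal *Rbpj*-/-_2866 lies at 4.19, close to the *Rbpj*+/+ animals, and *Rbpj*-/-_N3 and *Rbpj*-/-_N5 at 1.96 and 1.88. The genotypes overlap for *Slc22a4* and *Slc22a23*, although both were called.

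The *Rbpj*-/- animals were not alike in the genes that fell. In 8 of the 9 lower genes (88.9%), *Rbpj*-/-_2866 was the *Rbpj*-/- animal closest to *Rbpj*+/+ liver, and *Rbpj*-/-_N3 was so for *Slco1a1*. Over all 3665 lower genes, *Rbpj*-/-_2866 was closest for 59.2%. Among the 4 higher genes, *Rbpj*-/-_N3 was closest for 2 and *Rbpj*-/-_N5 for 2, while over all 2741 higher genes *Rbpj*-/-_2866 was closest for 50.9%, *Rbpj*-/-_N3 for 25.7% and *Rbpj*-/-_N5 for 23.4%.

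Other carriers of organic solutes were read from a list of 25 genes, of which 23 were tested. Of these, 6 were higher (background 14.6% of all tested genes) and 6 lower (background 19.5%), with a median log2 fold change of 0.07. Higher were the basolateral bile acid exporter subunit gene *Slc51b* (log2 fold change 3.75, adjusted p = 0.000487), the multidrug exporter genes *Abcb1a* (3.06, 0.00245) and *Abcb1b* (1.54, 0.0504), and *Abcc4* (2.11, 0.00297), *Abcc1* (2.02, 0.00838) and *Abcc5* (1.18, 0.0121). *Abcc1* was well above background on 1 of 4 and *Abcb1b* on 2 of 4 *Rbpj*+/+ arrays. The bile acid uptake carrier gene *Slc10a1* was lower (−0.90, adjusted p = 0.0122), and so were *Slc17a2* (−1.02, 0.00944), the exporter genes *Abcc6* (−0.99, 0.0192) and *Abcg2* (−0.88, 0.0599), *Slc17a3* (−0.82, 0.0455) and *Slc17a1* (−0.77, 0.0576). The canalicular bile acid exporter gene *Abcb11* had a difference of −0.56 that was not called (adjusted p = 0.228), and the exporter genes *Abcb4*, *Abcc2*, *Abcc3*, *Abcg5* and *Abcg8* were not called either.

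Of 16 listed regulators of hepatocyte transporters and liver identity, 15 were tested. Of these, 6 were lower (background 19.5% of all tested genes) and 1 higher (background 14.6%), with a median log2 fold change of −0.50. The lower genes included the bile acid receptor gene *Nr1h4* (log2 fold change −1.52, adjusted p = 0.00321), *Ppara* (−1.40, 0.00962), *Cebpa* (−1.01, 0.0877), *Nr0b2* (−0.92, 0.0474) and *Nr5a2* (−0.70, 0.0408). For *Cebpa*, animal *Rbpj*-/-_2866 (4.95) lay within the *Rbpj*+/+ range (4.63 to 5.07). For *Nr0b2*, animal *Rbpj*-/-_N3 (0.847) did so (0.815 to 1.325). The aryl hydrocarbon receptor gene *Ahr* was higher (0.80, adjusted p = 0.0508), and the difference of *Hnf4a* was −0.32 (adjusted p = 0.216).

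Member promoters were searched, on both strands, for short motifs of factors known from liver. The STAT motif TTCNNNGAA was found in 7 of 40 member promoters (17.5%) and in 7.02% of all 32851 promoters of this length, among the members in *Slco1b2*, *Slco2b1*, *Slc22a26*, *Slc22a19*, *Slc22a15*, *Slc22a16* and *Slco1a5*. The HNF1 motif GTTAAT was found in 4 of 40 (all promoters 6.43%), and the nuclear receptor motif AGGTCA in 5 of 40 (all promoters 4607 of 32851). None of these motifs lay in the promoters of *Slc22a28* or *Slc22a30*, while that of *Slc22a29* held GTTAAT at position −29. A match describes the letters of the window only.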

How the data were processed

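Whole liver RNA of 4 *Rbpj*+/+ and 3 *Rbpj*-/- mice was measured on Agilent mouse 8x60K arrays. The deposited intensity values are the spot signals of Feature Extraction 10.7.3.1 after subtraction of background and detrending by the authors, with no normalization between arrays. The deposited log2 values of the series matrix served as an alternative. On every array they correlated at r = 1.00 with quantile-normalized values centred on each probe's median (column medians 0, and −0.0039 for *Rbpj*+/+_1156), although the methods state a percentile shift.

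The comparison left out control probes and any spot marked non-uniform or a population outlier (146 probe values, none of a member). After averaging log2 signals over the spots of a probe, the array's 75th percentile was subtracted. The test was that of limma (version 3.58.1, R 4.3.3) with Benjamini-Hochberg adjustment over 24548 probes, in place of the study's own shrinkage test. For a gene with several tested probes, the one of highest mean signal was used. The number of arrays limits the precision. Every member entered the counts, and the values of 1 member gene are not reported here. Of each list of other genes, up to 6 called genes with the largest change were named, besides *Slc10a1*, *Abcb11* and *Hnf4a*, and 5 further lower carriers and 5 that were not called were named after their values were seen. Members and lists were chosen with earlier results of these data known. Alternatives concerned the background correction, normalization, percentile, filters on dim probes, marked spots, series matrix, probe choice, variance model, array weights and each animal left out. Tables and figures were made in Python 3.11.15 with pandas 2.3.3 and matplotlib 3.10.9.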

Additional observations from a re-analysis of the deposited data

Results flagged for a closer look

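Single animals stood apart within *Rbpj*+/+ liver for 3 of the 24 tested genes, by the gap to the nearest animal as a share of the range of the 4 animals. Chance alone flags about 1 in 20 groups. For *Slc22a17* the gap of animal *Rbpj*+/+_1156 took a share of 0.975 of the range (value −0.42, nearest −0.72). For *Slco1a4* that of animal *Rbpj*+/+_1024 took 0.892 (2.46, nearest 1.29), and for *Slco1b2* that of the same animal took 0.875 (8.63, nearest 8.32). The array of *Rbpj*+/+_1156 had the highest median intensity of its genotype (18.7), and the part of this in the gap of *Slc22a17* was not tested. The call of *Slco1b2* and the lack of a call for *Slco1a4* and *Slc22a17* did not change without the animal concerned.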

How the results depend on the processing

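All 24 genes kept their direction wherever they were called, and of 402 values of single genes under the alternatives, 365 stayed on their side of the threshold, 32 lost a call and 5 gained one. Under each of the 16 or 17 alternatives that could be computed for a gene, 6 of the 13 called genes were called (*Slco1a1*, *Slco1b2*, *Slco2b1*, *Slc22a28*, *Slc22a29* and *Slc22a30*). The number of higher genes, 4, was 1 without a filter on dim probes and 2 when only probes above background on all 7 arrays were tested, which leaves 18 genes. The number of lower genes, 9, was 5 without a filter, where 41 genes were fitted among 35666. Leaving out each animal gave 3 to 4 higher and 6 to 9 lower genes over the same tested probes, and 9 of the 13 called genes were called without each animal in turn. Calls were gained for *Slc22a13b-ps* (adjusted p = 0.0476), *Slc22a17* (0.0648) and *Slco4a1* (0.0742) with normexp, and for *Slco2a1* with array weights (0.0959). Over all tested genes, the share of higher among called genes was 42.8%, and 52.3% with quantile normalization. No paired analysis was possible because the genotypes share no replicate numbers. Signal over background limits the size of the differences of *Slco1a1*, *Slc22a26*, *Slc22a27* and *Slc22a29*, which were below background on some arrays.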
